A study of Arabidopsis thaliana with 8 samples.

Results

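Of the 22746 probe sets of the Arabidopsis ATH1 array, 68 were at least 2-fold lower in wild-type (WT) leaves after 5 d of drought than in WT leaves before drought and were, in addition, at least 2-fold lower in leaves of watered plants that overexpressed the grapevine gene VaNAC26. These 68 members were chosen by the measured values themselves. The rule took probe sets whose mean log2 intensity was at most -1 from the WT mean before drought in both groups, with all 4 of those arrays below both WT arrays before drought. Leaf RNA was hybridized to 8 arrays, 2 for each of 4 groups. OE 5d and OE 0d were VaNAC26-OE plants at 5 d after the last irrigation and before drought, and WT 5d and WT 0d were WT plants at the same 2 times. The OE plants carried VaNAC26 under the CaMV35S promoter, which is active in most tissues, in the Col-0 background, and leaves of 3 lines were pooled for each OE sample. Differences between lines can therefore not be seen. The transcript of the grapevine gene itself was not analysed here. All plants were grown in soil for 21 d before watering ended. No plants were kept watered until 5 d, so that drought and plant age cannot be told apart wherever 5 d is set against 0 d.

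NAC proteins are a family of plant transcription factors, many of which act in leaf senescence and in responses to drought. When soil dries, leaves slow their growth, and transcripts for cell division and cell wall loosening are commonly reduced while protective genes are induced. A transcript that is low in a watered transgenic plant and low in a droughted WT plant can take several courses once the transgenic plant is itself droughted, which is what the OE 5d arrays measured. The values are intensities on a linear scale, and a log2 difference is a difference of mean log2 intensities. Because the rule used WT 5d, OE 0d and WT 0d, the differences among these 3 groups are given for the members as a description, with no test. The OE 5d arrays took no part in the rule. Their comparisons with WT 5d and with OE 0d were tested in a limma fit over all 8 arrays and all probe sets, where a probe set is said to rise or fall at an adjusted p under 0.05. WT 5d and OE 0d were chosen low, however, which pulls both of these differences upward. In leaf samples, fewer cells of a type and less RNA per cell cannot be told apart.

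Both differences of the rule are taken from the same WT 0d arrays, and they were met by unequal numbers of probe sets. The fall in WT 5d with no overlap of arrays was met by 1869 probe sets (8.22%), and the fall in OE 0d by 87 (0.382%), of which 68 met both. A further 1801 probe sets were lower in WT 5d alone, 19 were lower in OE 0d alone, and 60 probe sets met the mirror image of the rule, higher in both. With the limma threshold on the whole array, 15.7% of probe sets stood above WT 0d in WT 5d and 14.8% below it. In OE 0d, 0.0528% stood above WT 0d and 0.0264% below it at the same threshold, so that the OE 0d difference of nearly all members rests on the fold of the rule. The median log2 difference of the members was -2.01 in WT 5d (range -4.38 to -1.10) and -1.31 in OE 0d (-4.48 to -1.004). The difference in OE 0d was at least as large as that in WT 5d for 14 members, and the 2 differences lay within 0.25 of each other for 22. For 21 members the WT 5d difference was the larger by over 1. Both OE 0d arrays lay above both WT 5d arrays for 41 members (32.2% of all probe sets) and below them for 2, bZIP58 and 246933_at (31.2% of all).

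**Figure D1:**
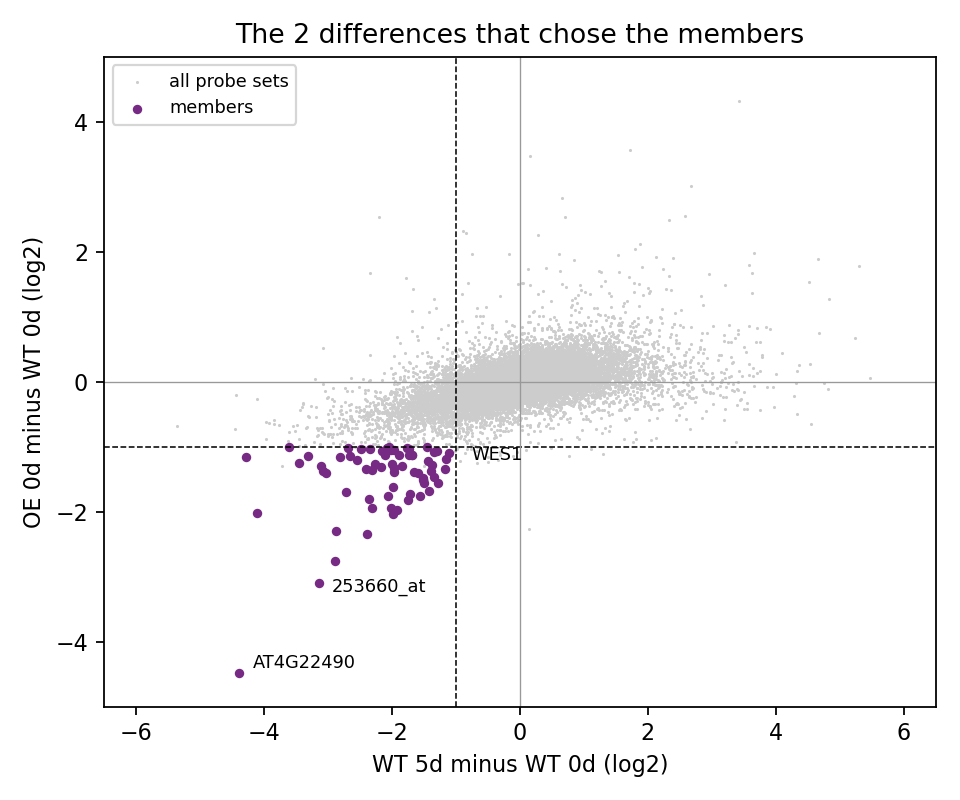
Log2 difference of WT 5d from WT 0d (x axis) against that of OE 0d from WT 0d (y axis) for each probe set, with all 22746 in grey and the 68 members in purple. Dashed lines mark the log2 difference of -1 that the rule used on both axes. Few probe sets reach it on the y axis, and AT4G22490 lies farthest out at -4.38 and -4.48.

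At the edge of the WT 5d threshold, WES1 and 256731_at lay just inside at -1.10 and -1.16, and 252193_at and 261335_at just outside at -0.98 and -0.94. At the edge of the OE 0d threshold, AT1G65370 and AT3G53190 lay inside at -1.004 each, and AT1G23410 and PRA1.F1 outside at -0.998 and -0.994. Members and other probe sets thus lay side by side at the OE 0d threshold. A further 6 probe sets passed both folds but had overlapping arrays. One of them was AT1G62500, a protein of the hybrid proline-rich family, with intensities of 16.2 and 13.9 in WT 5d, 30.9 and 203 in OE 0d, against 242 and 158 in WT 0d.

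Many members were dim. The member means had a median intensity of 26.97 in OE 5d, 16.3 in WT 5d, 24.0 in OE 0d, with 73.4 in WT 0d, and the highest were 1318, 411, 598 and 1877 in these groups. Over the whole array, 47.8% of the values were under 32, which was taken as close to background, a limit set here and not measured, and the array medians lay between 36.2 and 38.2. Both arrays were under 32 for 32 members in OE 5d, 54 in WT 5d, 36 in OE 0d, but 7 in WT 0d. With every value under 32 set to 32, 33 of the 68 members still met the rule, so that for the others the size of the difference depends on values near background. The WT 0d pair that served as the common reference was itself uneven: replicate 1 was above replicate 2 for 59 of 68 members, against 51.1% of all probe sets and 71.8% of the other probe sets lowered in WT 5d. Without WT 0d replicate 2, 127 probe sets met the rule (65 of the members), without OE 0d replicate 2, 117 (55 members), and without WT 0d replicate 1, 77 (43 members).

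A gene name was found for 37 members, all different loci, and 31 members were not in the annotation used, which is not the same as having no gene. The named members were spread over the 5 chromosomes (12, 2, 9, 9 and 5 on chromosomes 1 to 5), none were adjacent genes, and the closest pair, NAI2 and JAL33, lay 53 genes apart. All 68 members were probe sets of the plain type, whose name does not mark probes shared between genes. Names that do mark this (ending in _s_at or _x_at) made up only 4.66% of all probe sets.

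The rule was also applied to the arrays of 1 replicate number and read on the other, as a description of how far the replicates of the rule agree. It is no independent support for the members, which were chosen on these same arrays. Chosen on the replicate 1 arrays, 178 probe sets met both folds, and on the replicate 2 arrays 33 of them (18.5%) were at or below -1 in both differences, against 0.339% of all probe sets. Chosen on replicate 2, 77 probe sets met both folds, and 33 of them (42.9%) did so on replicate 1, against 0.783% of all. The 2 sets of 33 are the same probe sets, those that passed on both. Of the 178, 175 were below 0 in WT 5d and 167 in OE 0d on the arrays not used to choose, but 146 and 38 were at or below -1. Their median log2 differences were -1.80 and -0.58, against 0.02 and -0.015 over all probe sets. Of the 77, 73 and 72 were below 0, and 55 and 33 were at or below -1. Their medians were -1.72 and -0.92, against -0.006 and 0.006 over all. Both differences again share 1 WT 0d array, here that of the replicate read, so that a high value on it lowers both.

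The OE 5d arrays did not agree on where the members stood. Relative to the WT 0d mean, the median member was at -0.84 on OE 5d replicate 1 and -1.95 on OE 5d replicate 2, at -1.95 and -2.14 in WT 5d, and at -1.26 and -1.42 in OE 0d. Thus the first OE 5d array lay above the OE 0d arrays and the second with the WT 5d arrays. Replicate 1 was the brighter for 63 of 68 members, by a median of 1.002 on the log2 scale. It was the brighter for 52.6% of all probe sets and 91.0% of the other probe sets lowered in WT 5d, whose median gap was 0.67. For 34 members the OE 5d replicates differed by over 2-fold, always with replicate 1 higher, against 5.69% of all probe sets. A gap over 2-fold was seen for 5, 6 and 5 members in WT 5d, OE 0d and WT 0d (0.629%, 0.347% and 0.382% of all). Values for OE 5d are therefore given for each array.

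**Figure D2:**
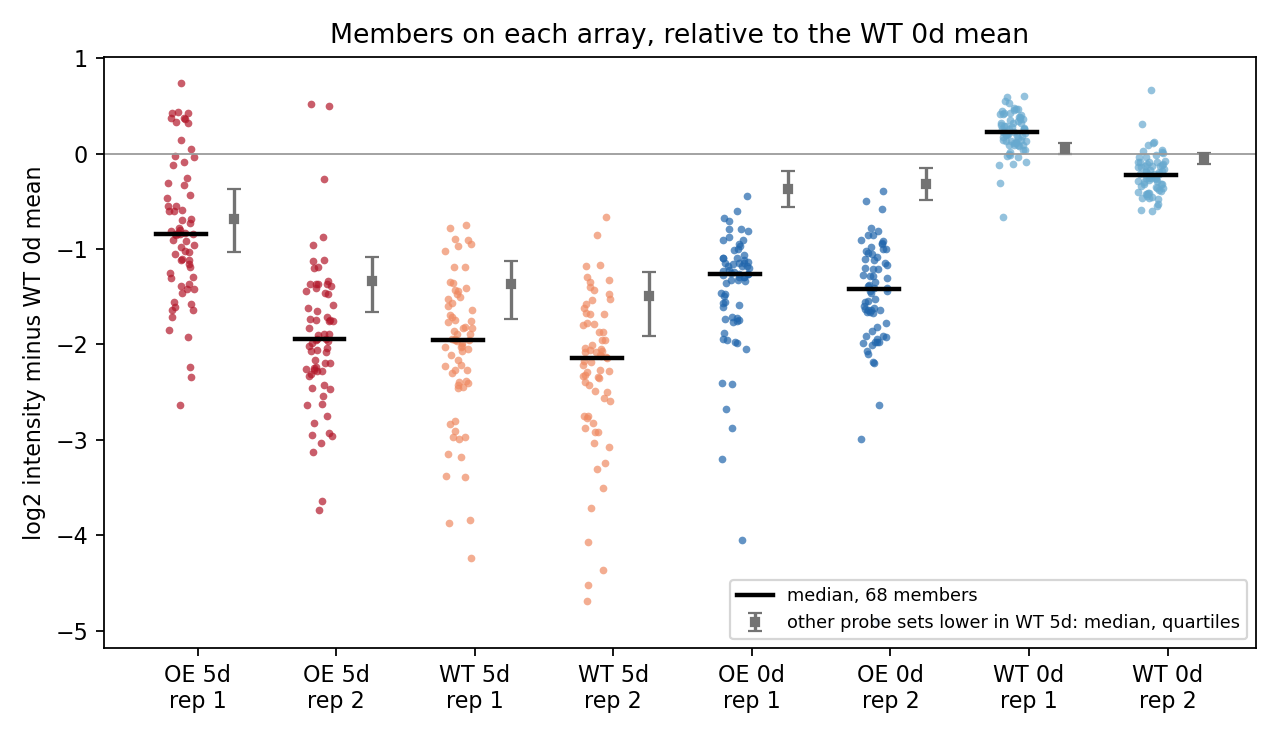
Log2 intensity minus the WT 0d mean (y axis) of the 68 members on each of the 8 arrays (x axis), with a black bar at the member median and a grey square with quartiles for the 1801 other probe sets lowered in WT 5d. The members sit near -0.84 on OE 5d replicate 1 and near -1.95 on replicate 2, and the grey squares lie higher on the OE 0d arrays (-0.37 and -0.32) than the members do (-1.26 and -1.42).

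Set against WT 0d, both OE 5d arrays lay below both WT 0d arrays for 52 members, against 29.1% of all probe sets and 88.5% of the other probe sets lowered in WT 5d, and above them for 1 member, 249862_at (28.9% of all). Because WT 0d was chosen high, this is a description. For the other 15 members the OE 5d and WT 0d arrays overlapped.

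In OE 5d vs WT 5d, 1 member rose, 253660_at, and none fell, where 0.0484% of all probe sets rose and 0% fell at this threshold. At an unadjusted p under 0.05, 25 members were higher and 0 lower, against 7.0% and 8.94% of all probe sets. The rule had chosen WT 5d low for the members, which pulls their differences upward, so that all probe sets are no equal yardstick here. The mean was higher in OE 5d for 64 of 68 members, with a median log2 difference of 0.52, against -0.004 over all probe sets and 0.47 over the other probe sets lowered in WT 5d. Both OE 5d arrays lay above both WT 5d arrays for 30 members (19.6% of all probe sets, 51.4% of the other lowered ones) and below them for 1, 262388_at (23% of all). The outcome turned on which OE 5d array was used. Without OE 5d replicate 2, 38 members rose and 0 fell (10.2% and 10.3% of all probe sets), and without OE 5d replicate 1, 5 rose and 0 fell (0.545% and 0.0484% of all). The median log2 difference of the members was 1.20 without replicate 2 and 0.06 without replicate 1. In such fits the remaining array is assumed to vary like the other groups. Both fits shared the WT 5d arrays, which the rule had chosen low, so that a rise in both is no independent support. The 5 members that rose with either array were 249862_at, 253660_at, AT4G22490, AT5G01870 and GH9B13.

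In OE 5d vs OE 0d, which asks what drought did in the OE plants, 5 members rose and 2 fell, while 7.06% of all probe sets rose and 6.53% fell. At an unadjusted p under 0.05 the counts were 6 and 6, against 13.7% and 14.2% of all probe sets. The median log2 difference of the members was 0.06, against -0.01 over all probe sets and -0.69 over the other probe sets lowered in WT 5d. Both OE 5d arrays lay above both OE 0d arrays for 9 members (26.1% of all, 0.555% of the other lowered ones). These were AT4G22490, 253660_at, AT5G01870, GH9B13, bZIP58, AT4G19430, AT3G06220, 249862_at and WES1. Both lay below both OE 0d arrays for 8 members (27.6% of all, 70.5% of the other lowered ones), which were PYK10, AT3G53190, 262388_at, 255236_at, AT5G45700, 262730_at, AT1G26540 and AT4G26660. The other lowered probe sets are no equal yardstick here, because OE 0d had been chosen low for the members only. Again the 2 arrays gave different answers. Without OE 5d replicate 2, 15 members rose and 1 fell (7.81% and 7.65% of all), and without OE 5d replicate 1, 5 rose and 19 fell (11.7% and 13.1% of all). The median difference of the members was 0.48 without replicate 2 and -0.40 without replicate 1. The 5 members that rose in the full fit were above OE 0d with either OE 5d array alone, and PYK10 was below it. These fits shared the same OE 0d arrays, which the rule had chosen low, so that their agreement is no independent support. ARPN, AT1G06100, 245688_at and 253207_at rose with replicate 1 alone and fell with replicate 2 alone.

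**Figure D3:**
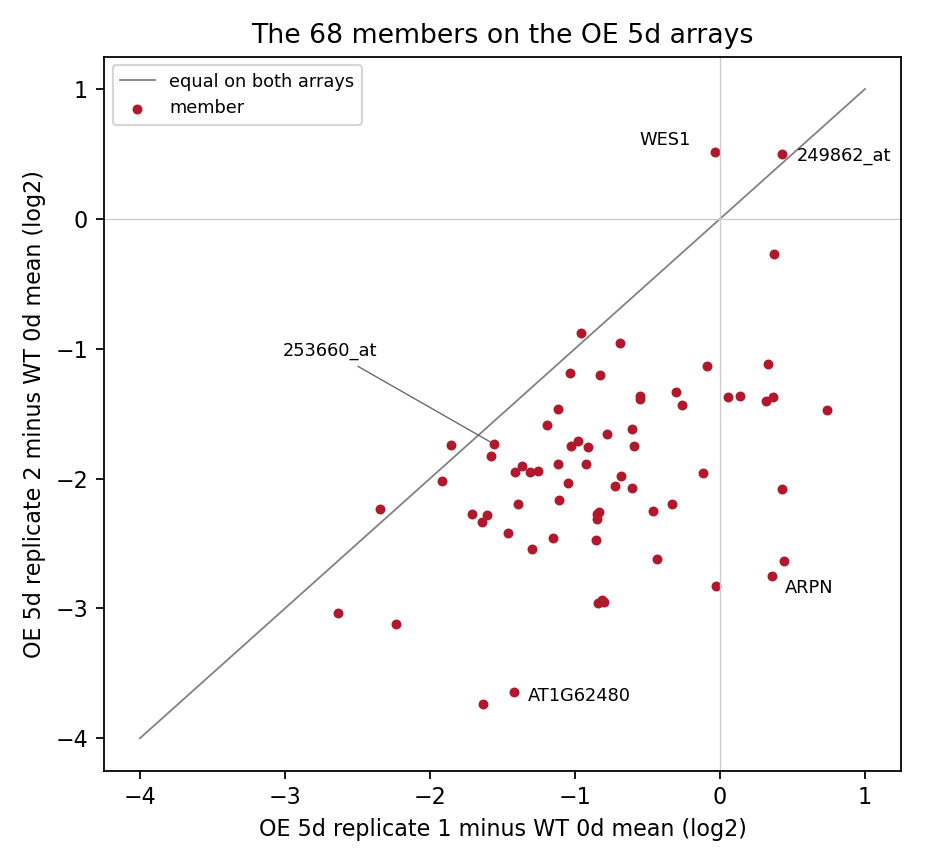
The 68 members on the OE 5d arrays, as log2 intensity minus the WT 0d mean on replicate 1 (x axis) and replicate 2 (y axis), with a line where both are equal. Nearly all points (63 of 68) lie under the line, ARPN and AT1G62480 far under it, while 253660_at, 249862_at and WES1 lie close to it or above it.

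Proteins of the lipid-transfer fold, small secreted proteins with 8 conserved cysteines that bind lipids at the cell surface, gave the member with the largest differences. AT4G22490 had intensities of 278 and 123 in OE 5d, 17.7 and 14.5 in WT 5d, 20.03 and 11.1 in OE 0d, with 440.2 and 251 in WT 0d. Relative to WT 0d it was 20.8-fold lower in WT 5d and 22.3-fold lower in OE 0d, under 32 in both, and in OE 5d its arrays overlapped with those of WT 0d. The rise in OE 5d vs OE 0d was 3.63 ± 0.44 on the log2 scale (SE, limma adjusted p = 0.0036), and the difference from WT 5d was 3.53 ± 0.44 (adjusted p = 0.0659), which did not pass. The call against OE 0d was lost with values under 32 set to 32 (2.53, adjusted p = 0.0672) and with an unmoderated variance (adjusted p = 0.0679). AT5G01870, a lipid transfer protein, took the same course, with 64.2 and 23.5 in OE 5d, 6.41 and 7.59 in WT 5d, 9.62 and 11.2 in OE 0d, with 58.1 and 45.0 in WT 0d. Its rise in OE 5d vs OE 0d was 1.90 ± 0.40 (adjusted p = 0.0197), and the call was lost without OE 0d replicate 1 or 2 (adjusted p = 0.126 and 0.110, and 0.00108 to 0.654 over all alternatives). Its OE 5d replicate 1 array lay above both WT 0d arrays and its replicate 2 array below them.

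Of 26 genes in a list of hybrid proline-rich and related 8-cysteine proteins, 11 had a named probe set and AT4G22490 was the only member. Of the 10 others, 1 rose and 4 fell in WT 5d vs WT 0d and 0 changed with genotype in watered plants. Over the 11, 1 rose and 2 fell in OE 5d vs OE 0d, and 0 changed in OE 5d vs WT 5d, with median log2 differences of -0.05 and 0.41. A fall from WT 0d could not be read at the close neighbours of AT4G22490, which were under 32 in WT 0d. AT4G22460 had 14.6 and 12.3 in OE 0d and 10.5 and 13.0 in WT 0d. AT4G22470 had 16.0 and 35.4 in OE 0d and 9.30 and 9.82 in WT 0d. The 2 of 10 classical lipid transfer proteins with a probe set were AT5G01870 and AT2G18370, which stayed between 5.59 and 8.64 on all arrays.

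**Figure D4:**
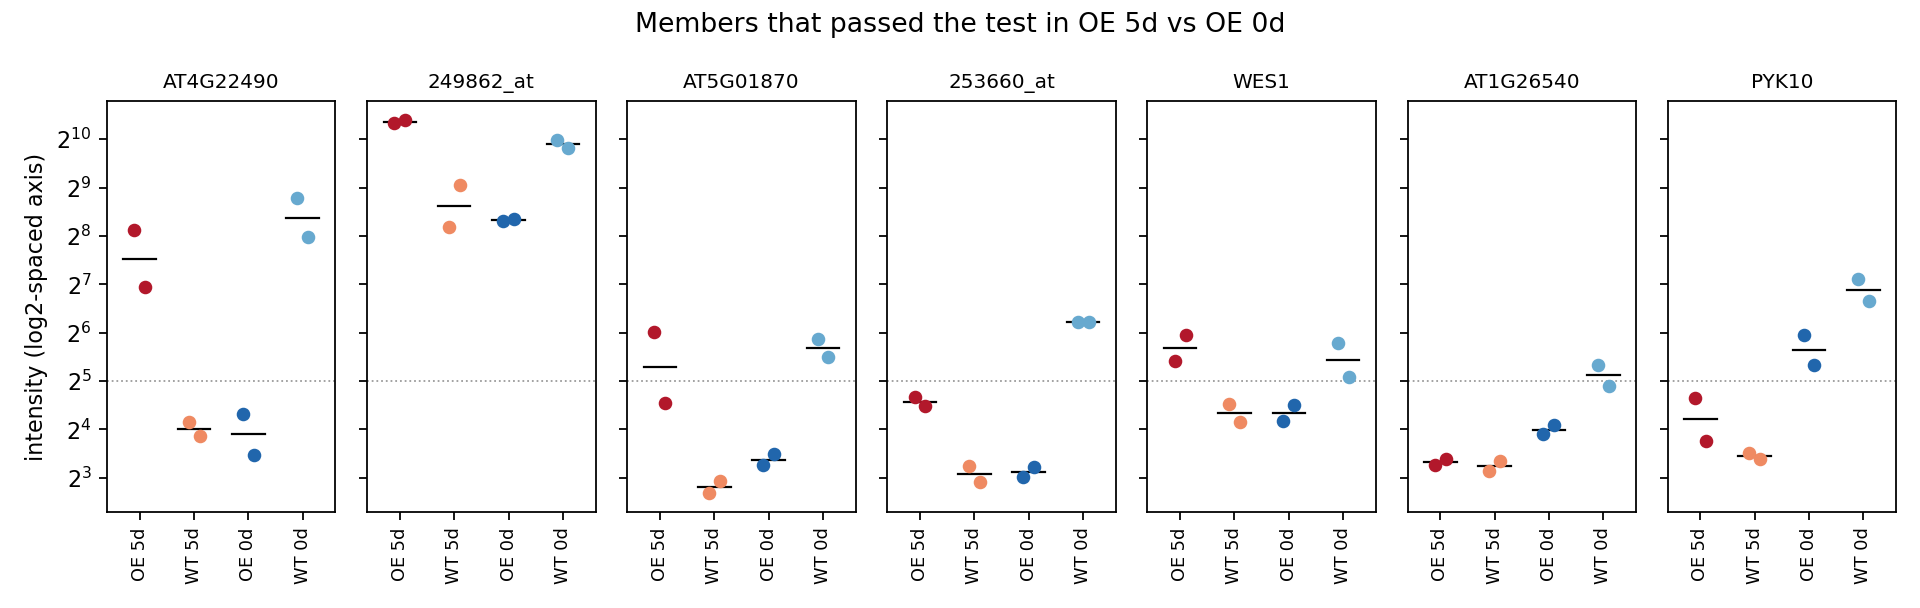
Intensity on a log2-spaced axis (y axis) of the 7 members that rose or fell in OE 5d vs OE 0d, 1 panel each, with the 2 arrays of OE 5d, WT 5d, OE 0d and WT 0d from left to right, a bar at their geometric mean and a dotted line at 32. In AT4G22490, 249862_at, AT5G01870, 253660_at and WES1 the OE 5d arrays are above the OE 0d arrays, and in PYK10 and AT1G26540 below them.

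The member that rose in both tests, 253660_at, carries no gene name here. It had 25.3 and 22.4 in OE 5d, 9.49 and 7.52 in WT 5d, 8.13 and 9.34 in OE 0d, with 74.2 and 74.9 in WT 0d. Relative to WT 0d it was 8.82-fold lower in WT 5d and 8.55-fold lower in OE 0d, and in OE 5d it stood between these levels and WT 0d on both arrays. The rise was 1.495 ± 0.16 against WT 5d (SE, limma adjusted p = 0.036) and 1.45 ± 0.16 against OE 0d (adjusted p = 0.00304). All of its values outside WT 0d were under 32, and the call against WT 5d was lost without any 1 of the WT 5d, OE 0d or WT 0d arrays (adjusted p of 0.104 to 0.360, and 0.0017 to 1 over all alternatives). Another rising member without a name, 249862_at, had 1285 and 1349.7 in OE 5d, 292 and 531 in WT 5d, 319 and 328 in OE 0d, with 1019 and 899 in WT 0d. Both OE 5d arrays lay above both WT 0d arrays, and the rise in OE 5d vs OE 0d was 2.03 ± 0.25 (adjusted p = 0.00396). Its difference from WT 5d was 1.74 ± 0.25 (adjusted p = 0.0918), which did not pass.

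Among auxin genes, 2 members encode GH3 enzymes, which join auxin to amino acids and so lower the active hormone. WES1 (GH3.5) had 42.5 and 62.1 in OE 5d, 23.2 and 17.7 in WT 5d, 18.1 and 22.6 in OE 0d, with 55.5 and 34.0 in WT 0d. The OE 5d arrays overlapped with those of WT 0d, and the rise in OE 5d vs OE 0d was 1.34 ± 0.28 (adjusted p = 0.0198). That call was lost without OE 0d replicate 1 or 2 (adjusted p = 0.136 and 0.0928, and 0.00491 to 0.336 over all alternatives). GH3.17 had 11.4 and 6.49 in OE 5d, 9.23 and 6.18 in WT 5d, 9.76 and 9.57 in OE 0d, with 45.0 and 19.7 in WT 0d. It was under 32 on all arrays but WT 0d replicate 1, and in OE 5d it was at -0.17 from OE 0d (adjusted p = 0.851). Of 26 auxin conjugation and auxin-induced genes, 6 had a probe set. Of the 4 that are no members, 0 rose and 1 fell in WT 5d vs WT 0d, and over the 6, 1 rose and 1 fell in OE 5d vs OE 0d and 0 changed in OE 5d vs WT 5d, with medians of -0.04 and 0.32. The 4 include a pair of GH3 genes. GH3.3 had 21.1 and 29.1 in OE 0d and 32.9 and 20.9 in WT 0d, and GH3.1 had 6.28 and 6.77 in OE 0d and 5.53 and 5.95 in WT 0d.

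The endoplasmic reticulum (ER) body is a store of beta-glucosidases in cells of Arabidopsis and its relatives, which release toxic products from glucosides when tissue is damaged. A beta-glucosidase of the ER body, PYK10, had 25.2 and 13.6 in OE 5d, 11.3 and 10.4 in WT 5d, 61.7 and 40.5 in OE 0d, with 139 and 101 in WT 0d. Relative to WT 0d it was 10.9-fold lower in WT 5d and 2.37-fold lower in OE 0d, where the WT 5d fold depends on values under 32. In OE 5d vs OE 0d it fell by 1.43 ± 0.32 on the log2 scale (adjusted p = 0.0239). The call was lost without OE 0d replicate 1 or 2 (adjusted p = 0.161 and 0.0752, and 0.00173 to 0.282 over all alternatives), and the OE 5d values were under 32. NAI2, which is needed to form ER bodies, had 22.9 and 11.0 in OE 5d, 7.09 and 6.94 in WT 5d, 26.2 and 18.6 in OE 0d, with 57.8 and 42.1 in WT 0d. JAL33, a jacalin-related lectin of the PYK10 complex, had 26.1 and 15.7 in OE 5d, 13.2 and 12.5 in WT 5d, 20.5 and 22.1 in OE 0d, with 67.2 and 39.3 in WT 0d. For both, the OE 5d arrays lay above the WT 5d arrays, and the differences of OE 5d from OE 0d, -0.48 and -0.07, did not pass (adjusted p = 0.425 and 0.914).

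A list of 19 ER body genes, put together after these values were seen, held 6 genes with a probe set. Besides the 3 members these were JAL34, with log2 differences of -0.25 in WT 5d and -0.33 in OE 0d from WT 0d, AT1G54020 (-1.69 and 0.78) and NAI1, the transcription factor of this pathway (-0.36 and -0.04). None of these 3 changed in WT 5d vs WT 0d or in OE 0d vs WT 0d. However, NAI1 lay between 9.15 and 14.8 on all 8 arrays, and AT1G54020 had 24.2 and 19.7 in WT 0d. A fall from these values under 32 could not be read. Over the 6, 0 rose and 1 fell in OE 5d vs OE 0d, and 0 changed in OE 5d vs WT 5d. PYK10 is also strongly expressed in roots. The other 3 of the 4 root markers with a probe set (of 9 listed), AT3G01190, EXPA7 and EXPA18, lay between 5.27 and 13.7 on all 8 arrays.

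Several named members belong to families that act on the cell wall. AT3G53190, a pectin lyase-like protein, had 130.4 and 53.0 in OE 5d, 32.8 and 17.2 in WT 5d, 131 and 160.1 in OE 0d, with 317 and 265 in WT 0d. Its OE 0d level lay between WT 5d and WT 0d, and both OE 5d arrays lay below the OE 0d arrays, the first of them only just. GH9B13, an endoglucanase of glycosyl hydrolase family 9, had 36.8 and 39.0 in OE 5d, 9.15 and 8.49 in WT 5d, 21.7 and 33.7 in OE 0d, with 96.1 and 53.3 in WT 0d. Here the OE 5d arrays agreed closely, and both lay above both OE 0d and both WT 5d arrays, but the differences of 0.49 ± 0.29 from OE 0d and 2.10 ± 0.29 from WT 5d did not pass (adjusted p = 0.344 and 0.0868). BXL2, a beta-xylosidase, had 58.3 and 34.2 in OE 5d, 27.3 and 24.0 in WT 5d, 52.3 and 46.5 in OE 0d, with 152 and 106 in WT 0d. EXLA2, an expansin-like protein, had 56.4 and 13.0 in OE 5d, 20.1 and 14.5 in WT 5d, 50.7 and 36.6 in OE 0d, with 97.2 and 101 in WT 0d. Its OE 5d arrays lay on either side of both WT 5d and OE 0d.

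Of the class III peroxidases, enzymes that cross-link or loosen walls, AT3G21770 had 51.1 and 18.5 in OE 5d, 17.4 and 21.4 in WT 5d, 19.7 and 20.7 in OE 0d, with 118 and 51.4 in WT 0d. The other, AT5G58390, had 90.2 and 19.8 in OE 5d, 70.9 and 28.8 in WT 5d, 55.1 and 49.9 in OE 0d, with 150.0 and 98.8 in WT 0d. AT5G58390 was 1 of the 4 members whose OE 5d mean lay under the WT 5d mean (-0.10, adjusted p = 0.958). Copper amine oxidases make hydrogen peroxide as they break down amines, and 1 of them, AT1G31710, had 84.7 and 19.7 in OE 5d, 48.9 and 19.98 in WT 5d, 164 and 62.6 in OE 0d, with 296 and 234 in WT 0d. Its replicates differed by over 2-fold in OE 5d, WT 5d and OE 0d. ARPN, a plantacyanin, a small copper protein of the cell surface, had 289.5 and 33.6 in OE 5d, 24.8 and 27.6 in WT 5d, 108 and 78.3 in OE 0d, with 272 and 187 in WT 0d. Its OE 5d replicates were on opposite sides of the OE 0d arrays, so that its mean difference of 0.10 from OE 0d stands for neither of them. AT3G13650, a dirigent family protein, had 56.5 and 15.5 in OE 5d, 31.0 and 25.5 in WT 5d, 40.3 and 27.9 in OE 0d, with 76.3 and 65.8 in WT 0d. None of 6 listed expansins and xyloglucan endotransglucosylases with a probe set (of 20) was a member. Of these, 1 rose and 2 fell in WT 5d vs WT 0d, and 1 rose and 1 fell in OE 5d vs OE 0d.

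Some of the largest differences belonged to genes for which no role is given here. AT4G29030 had 759 and 229.9 in OE 5d, 41.4 and 23.6 in WT 5d, 158 and 466 in OE 0d, with 763 and 487 in WT 0d. Relative to WT 0d it was 19.5-fold lower in WT 5d and 2.24-fold lower in OE 0d, and its difference of OE 5d from WT 5d, 3.74 ± 0.65, was the highest of all members but did not pass (adjusted p = 0.11). AT1G62480 had 699.8 and 149.8 in OE 5d, 263 and 310.0 in WT 5d, 760.1 and 436 in OE 0d, with 2053 and 1700.4 in WT 0d. It had OE 5d replicate 1 among the OE 0d values and replicate 2 below WT 5d. AT4G19430 had 48.7 and 40.5 in OE 5d, 18.8 and 11.7 in WT 5d, 36.9 and 25.9 in OE 0d, with 109 and 56.9 in WT 0d. Both OE 5d arrays lay above both OE 0d arrays (0.52, adjusted p = 0.393). AT1G26540 had 9.65 and 10.4 in OE 5d, 8.80 and 10.1 in WT 5d, 14.9 and 16.9 in OE 0d, with 40.4 and 30.0 in WT 0d. It was under 32 on all arrays but WT 0d replicate 1, and with values under 32 set to 32 its OE 5d vs OE 0d difference was 0. It fell by 0.66 ± 0.18 on the log2 scale in OE 5d vs OE 0d (adjusted p = 0.0457), a call that was lost without any 1 of the OE 5d, WT 5d or OE 0d arrays (adjusted p of 0.0524 to 0.257, and 0.0305 to 1 over all alternatives).

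Of transcription factors, bZIP58 had 9.93 and 6.16 in OE 5d, 6.403 and 6.11 in WT 5d, 6.01 and 6.03 in OE 0d, with 34.3 and 16.4 in WT 0d. It was under 32 on all arrays but WT 0d replicate 1. AT3G06220, a B3-domain protein, had 30.7 and 19.7 in OE 5d, 9.34 and 5.43 in WT 5d, 6.96 and 16.8 in OE 0d, with 32.3 and 17.4 in WT 0d. Its mean was higher in OE 5d than in OE 0d by 1.18 ± 0.48 (adjusted p = 0.153), but it too was under 32 on all arrays but WT 0d replicate 1. DI21, named for its induction by drought, was lower in WT 5d here, with 519 and 112 in OE 5d, 76.7 and 55.1 in WT 5d, 125 and 136 in OE 0d, with 309 and 315 in WT 0d. OE 5d replicate 1 lay above both WT 0d arrays while replicate 2 lay below the OE 0d arrays. AT1G06100, of the fatty acid desaturase family, had 84.3 and 14.8 in OE 5d, 13.1 and 11.7 in WT 5d, 25.5 and 36.5 in OE 0d, with 71.9 and 54.8 in WT 0d. The OE 5d arrays were split in the same way. AT1G53070, of the legume lectin family, had 115 and 42.9 in OE 5d, 30.6 and 26.2 in WT 5d, 52.0 and 55.2 in OE 0d, with 136 and 90.5 in WT 0d. AT4G10270, of the wound-responsive family, had 69.1 and 24.4 in OE 5d, 23.3 and 24.96 in WT 5d, 18.5 and 31.8 in OE 0d, with 78.4 and 50.2 in WT 0d.

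Of the remaining named members, TUB1, a beta-tubulin, had 17.5 and 6.35 in OE 5d and 40.3 and 24.5 in WT 0d, and scpl31, a serine carboxypeptidase-like protein, had 5.90 and 5.50 in OE 5d and 23.8 and 20.9 in WT 0d. AT2G19970, of the family of pathogenesis-related protein 1, had 8.83 and 6.70 in OE 5d and 21.8 and 18.6 in WT 0d. These 3 were under 32 on every OE 5d, WT 5d and OE 0d array, and scpl31 and AT2G19970 were so on both WT 0d arrays as well. AT1G65370, of the TRAF-like family, had 170.2 and 132 in OE 5d, 88.9 and 60.7 in WT 5d, 174 and 131 in OE 0d, with 334 and 274 in WT 0d. OE 5d and OE 0d were at one level and WT 5d, which the rule had chosen low, was lower. The difference of OE 5d from WT 5d, 1.03 ± 0.24, did not pass (adjusted p = 0.179). AT1G19540, similar to isoflavone reductases, had 23.2 and 9.20 in OE 5d and 45.7 and 32.1 in WT 0d, and AT3G46490, of the 2-oxoglutarate-dependent oxygenase family, had 43.2 and 9.73 in OE 5d and 73.1 and 77.3 in WT 0d. AT5G45700, AT5G19340, AT3G19200, AT4G26660 and AT5G14230 differed from WT 0d by -2.69, -1.97, -1.85, -1.68 and -1.29 in WT 5d and by -1.02, -1.39, -1.30, -1.12 and -1.07 in OE 0d, with no change called in OE 5d. AT3G19200 was under 32 on every array, AT4G26660 on all but WT 0d replicate 1, and AT5G45700 on all arrays outside WT 0d.

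The 31 members without a name differed from WT 0d by a median of -1.76 in WT 5d (-4.11 to -1.16) and -1.39 in OE 0d (-3.10 to -1.01), and their OE 5d mean lay between -0.43 and 2.21 from WT 5d. The one farthest above WT 5d was 245688_at, with 303 and 69.7 in OE 5d, 37.8 and 26.2 in WT 5d, 131 and 138 in OE 0d, with 627 and 469 in WT 0d. Its OE 5d replicates differed widely and the difference of 2.21 ± 0.57 did not pass (adjusted p = 0.188). The lowest were 256942_at (-0.43, adjusted p = 0.66), 262388_at (-0.31, adjusted p = 0.558) and 258241_at (-0.04, adjusted p = 0.961). Of these, 262388_at had 18.3 and 19.8 in OE 5d, 26.5 and 21.0 in WT 5d, 25.3 and 20.5 in OE 0d, with 118 and 73.4 in WT 0d. It was the one member with both OE 5d arrays below both WT 5d arrays. Its differences of OE 5d from WT 5d and from OE 0d did not pass. Nor did those of 257823_at, with 16.2 and 12.3 in OE 5d, 13.4 and 13.7 in WT 5d, 13.7 and 16.2 in OE 0d, with 102 and 99.5 in WT 0d. Another unnamed member, 263498_at, had 685 and 98.6 in OE 5d, 376 and 159 in WT 5d, 322 and 184 in OE 0d, with 779 and 626 in WT 0d, and its OE 5d replicates again lay on opposite sides of OE 0d.

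Other gene groups were measured on the same arrays to show what moved beside the members. All 5 cell cycle genes with a probe set (of 18 listed) fell in WT 5d vs WT 0d, 0 changed in OE 0d vs WT 0d and 1 fell in OE 5d vs OE 0d, and none was a member. Their median log2 difference in OE 5d vs OE 0d was -0.94. Relative to WT 0d it was -2.33 for WT 5d and -0.80 for watered OE plants, where all probe sets had medians of 0.01 and -0.01. The closest was SYP111, a syntaxin of dividing cells, with 189.6 and 81.0 in OE 5d, 40.7 and 29.0 in WT 5d, 167 and 214 in OE 0d, with 384 and 365 in WT 0d. Its log2 difference of OE 0d from WT 0d was -0.98. Stomatal lineage markers (4 of 8 with a probe set, 3 of which fell in WT 5d vs WT 0d and 1 in OE 5d vs OE 0d) summed to 79.1 and 73.6 in OE 5d, 73.9 and 70.4 in WT 5d, 130.3 and 123 in OE 0d, against 138 and 139 in WT 0d. The mesophyll marker RCA (1 of 6), the activase of rubisco, had 6992 and 8599 in OE 5d, 9858 and 9408 in WT 5d, 9232 and 9583 in OE 0d, with 9063 and 8768 in WT 0d, so that this leaf transcript was present in all groups. The shoot apex marker CLV3 (1 of 6) stayed between 4.11 and 6.46. The 3 of 9 flower and pollen markers stayed between 3.86 and 8.97 except LCR66, which had 4.20 and 29.0 in OE 5d. The part of these cells in the members' differences was not tested.

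Of the lists without a member, light harvesting and carbon fixation (3 of 18 genes) and glucosinolate synthesis (2 of 21) changed in none of the 4 comparisons. In WT 5d vs WT 0d, both of 2 senescence genes, both of 2 genes of the early touch, wound and cold response, 1 of 2 genes of gibberellin and brassinosteroid metabolism and the clock gene GI (1 of 17) rose. In OE 5d vs OE 0d, 1, 2, 1 and 0 of these rose, and the 1 gene of nitrate and sulfate assimilation (of 13) fell. Lists with so few genes measured describe those genes and not the pathway.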

How the data were processed

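Leaf RNA of 4 groups was measured on 8 arrays. The authors amplified and labelled it with biotin and deposited linear intensities for each probe set on every array. How these deposited intensities were summarized and normalized, and with which software, is not stated in the labels or methods used. After 64 array controls had been removed, 22746 probe sets were analysed on the log2 scale. The sources do not say whether the replicates came from separate plants, so that p-values measure the spread between these arrays, which may be technical. Arrays have no depth, and their number limits the precision.

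A mean for each of the 4 groups was fitted to all 8 arrays with limma 3.58.1 (lmFit and eBayes, R 4.3.3), which left 4 residual degrees of freedom. The fit assumes 1 spread for all groups. Gaps over 2-fold between replicates were more common in OE 5d (5.69% of probe sets) than in WT 5d, OE 0d and WT 0d (0.629%, 0.347% and 0.382%). Standard errors and p-values of the OE 5d comparisons thus rest in part on the closer arrays of the other groups. Adjusted p-values are those of Benjamini and Hochberg across the 22746 probe sets. Other steps used Python 3.11.15, pandas 2.3.3 and numpy 2.4.6. The fit was tested on simulated data. Names came from the platform annotation through RefSeq locus tags (assembly TAIR10.1), and 1 member (BXL2) from a supplementary table of the study, whose fold changes and p-values were not used. No sequence is printed.

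The members and the 17 gene lists (242 genes, 55 of them with a named probe set) were chosen with earlier results of these data known, and another list, of the ER body, after its values had been seen. The rule for genes given in full took the named members with a WT 0d mean of at least 32 and the largest sum of both differences (up to 12), the 4 highest and 4 lowest in OE 5d minus WT 5d, all members past an adjusted p of 0.05, all members in a list, and the 2 nearest each threshold. The alternatives were quantile normalization, median centring, a floor and a filter at 32, arithmetic means, folds of 1.5 and 3, the rule with overlap allowed, the replicate number as a block, a trended robust eBayes, an unmoderated variance, the 4 arrays of a comparison alone, an unadjusted threshold, and each array left out in turn.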

Additional observations from a re-analysis of the deposited data

Results flagged for a closer look

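For 9 members, both OE 5d arrays lay above both OE 0d arrays (26.1% of all probe sets), while by the rule both WT 5d arrays lay below both WT 0d arrays. The share among the 68 members is below that over all probe sets, and the 9 are listed because the order of 5 d and 0 d arrays was opposite in the 2 genotypes. The log2 differences of OE 5d from OE 0d were 3.63 for AT4G22490, 2.03 for 249862_at, 1.90 for AT5G01870, 1.45 for 253660_at, 1.34 for WES1, 1.18 for AT3G06220, 0.52 for AT4G19430, 0.49 for GH9B13 and 0.38 for bZIP58. The last 4 of these did not pass the test (adjusted p = 0.153, 0.393, 0.344 and 0.552 in limma). The difference between the genotypes was not tested, because the rule had fixed the direction in WT and had chosen OE 0d low. For 253660_at, AT3G06220 and bZIP58 all 6 arrays of OE 5d, WT 5d and OE 0d were under 32.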

How the results depend on the processing

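The number of probe sets that met the rule, 68, was 33 with values under 32 set to 32, 39 among probe sets with a mean of at least 32, 457 with a fold threshold of 1.5, 16 with a fold threshold of 3, and 65 to 127 when each of the 6 arrays of the rule was left out. The members that rose in OE 5d vs WT 5d, 1 in the full fit, were 0 after quantile normalization, with values under 32 set to 32, among probe sets with a mean of at least 32, with an unmoderated variance and with the 4 arrays of the comparison alone, 2 with arrays centred on their median, 21 at a fold over 2 with an unadjusted p under 0.05, and 0 to 38 when each array was left out. Those that rose in OE 5d vs OE 0d, 5 in the full fit, were 1 with values under 32 set to 32 and with an unmoderated variance, 3 among probe sets with a mean of at least 32 and with the 4 arrays alone, and 3 to 15 when each array was left out. Those that fell, 2 in the full fit, were 0 with values under 32 set to 32, with an unmoderated variance and with the 4 arrays alone, 1 with a trended robust moderation and at a fold over 2 with an unadjusted p under 0.05, and 0 to 19 when each array was left out. The probe sets chosen on 1 replicate number and found on the other, 33, were 15 with values under 32 set to 32. For these settings the cause was not tested, except that a floor makes values under it equal. The labels do not say whether the replicate numbers pair the samples, and the main fit did not pair them. The correlations of replicate differences between groups ran from 0.0136 to 0.223, not all over 0.1, which does not decide it. With the replicate number as a block, 3 members rose and 0 fell in OE 5d vs WT 5d, and 5 rose and 4 fell in OE 5d vs OE 0d. Over these settings the median log2 difference of the members lay between 0.02 and 1.20 in OE 5d vs WT 5d and between -0.40 and 0.48 in OE 5d vs OE 0d. With only 2 arrays in a group and many intensities near background, the precision is limited.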
